A study of Sus scrofa with 14 samples.

Results

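Circular RNAs (circRNAs) made from genes of DNA replication, DNA repair and mitosis were examined in embryonic pig brain. A circRNA is a closed loop formed when a splice donor joins an upstream acceptor, and it was counted by the sequencing reads that cross this backsplice junction. The members were all circRNAs with a single host gene whose symbol starts with BUB, TOP, BRCA, BARD, FANC, RAD, MCM, ORC, SMC, CENP, MSH, XRCC, STAG, POLA, POLE, POLQ, NCAP or CCN, or is ATM or ATR. This gave 69 of 5585 circRNAs (1.24%) in the cortex table, which includes the early forebrain, and 50 of 3967 (1.26%) in a table of 5 brain regions. Together they were 82 different circRNAs from 36 host genes, with 37 circRNAs in both tables. No host with a BRCA, POLA, POLE, POLQ or NCAP name was found.

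Long total RNA depleted of ribosomal RNA came from 14 samples. The earliest was forebrain of embryonic day 23 (E23), and 5 samples of the cortex followed from E42 to E115 (E60, E80 and E100 between them). The hippocampus, cerebellum, brain stem and basal ganglia were each sampled at E60 and again at E115. The labels give no treatment, strain or genotype. A single library stands for each region on each day, with no replicates, and the labels do not say how many animals it came from, so intervals cover counting error only and p-values measure scatter around a line over stages or between regions, not between animals. E23 was forebrain and later stages were cortex, so for E23 the effects of tissue and of day cannot be told apart. In bulk tissue fewer cells of a type and less RNA per cell cannot be told apart either. The libraries held 9.67 to 58.8 M reads (M, 10 to the power 6), and 518 (E60 brain stem) to 17336 (E60 cortex) circRNA reads.

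The host genes serve the steps by which a dividing cell copies and separates its DNA. The origin recognition complex (ORC) and the MCM helicase license replication, topoisomerases release the twist ahead of the fork, cohesin holds sister chromatids and condensin compacts them, and the BUB kinases delay anaphase until kinetochores are attached. The Fanconi, mismatch, end-joining and excision pathways repair lesions, and ATM and ATR signal them. In the embryonic cortex, dividing progenitors give rise to neurons that no longer divide, while granule cell precursors of the cerebellum keep dividing late in development. Several of these genes also act outside division: TOP2B and the cohesin subunits work in neurons that no longer divide, and the prefixes caught MCMBP (an MCM-binding protein), CCNI and CCNYL1 (cyclin relatives not tied to 1 step of the cycle) and RAD54L2 (a helicase-like protein known as a cofactor of nuclear receptors).

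Member circRNAs were sparse. The median member had 7 reads over the cortex series and 3 over the regions, against 6 and 4 for all circRNAs. Reads in 62 of the 69 and 49 of the 50 members added up to the total that the table states for the line, and sums over members use these. In the lines that do not add up, E115 basal ganglia has no reads and E100 cortex few (13235 circRNA reads with these lines and 13128 without, against 19014 and 17336 at E60). Reads of these 2 libraries may therefore be missing from the tables, and their summed levels may be too low. At least 20 reads were present in 10 of the 62 (16.1%, against 16.1% of all circRNAs) and in 3 of the 49 (6.12%, against 387 of all 3776). The distance between the junction ends ran from 274 to 94608 bp in the cortex table, with a median of 7953 bp against 9662 bp for all circRNAs. Loops of 1 gene often shared a junction end. Of 7 MSH3 circRNAs in the cortex table, 4 began at position 91169756 of chromosome 2, all 4 CCNYL1 circRNAs ended at 122461484 of chromosome 15 and both BUB1B circRNAs ended at 146245609 of chromosome 1 (build Sscrofa10.2). Such circRNAs are not independent of each other.

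Over the cortex series the summed level of the 62 member circRNAs was highest in mid-gestation, as reads per M library reads (RPM). The E23 forebrain was at 3.76 RPM (95% exact Poisson interval 3.28 to 4.29). The cortex at E42 and E60 was higher, at 6.41 (5.48 to 7.44) and 6.40 (5.37 to 7.56). The last 3 stages were below both, with 2.40 (1.85 to 3.07) at E80, 2.49 (2.07 to 2.98) at E100 and 1.76 (1.42 to 2.15) at E115. As a share of all circRNA reads, however, the members were highest in the E23 forebrain. The share was 1.32% there (exact Clopper-Pearson interval 1.16% to 1.51%), and in the 5 cortex stages, by day, it was 0.997%, 0.790%, 0.790%, 0.922% and 0.815%, the last with an interval of 0.659% to 0.995%.

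A single MSH3 circRNA made up much of the late share. MSH3 is a mismatch recognition protein, and its main circRNA (chr2:91264177-91335022) had 42, 15, 4, 26, 49 and 51 reads from E23 to E115, the most of any member. Without it the summed share of the other 61 was 1.07% at E23 (0.921% to 1.24%) and, in the later stages by day, 0.909%, 0.767%, 0.469%, 0.548% and 0.377% (0.274% to 0.506% at E115). The E23 and E115 intervals did not overlap. E42 and E80 had nearly equal depth (26.7 and 26.6 M reads), and the 62 members had 171 reads in the first and 64 in the second, while all circRNAs had 17157 and 8098. In 24 of the 62 members (38.7%) no read was found at E80, E100 or E115, against 27.8% of all circRNAs.

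**Figure D1:**
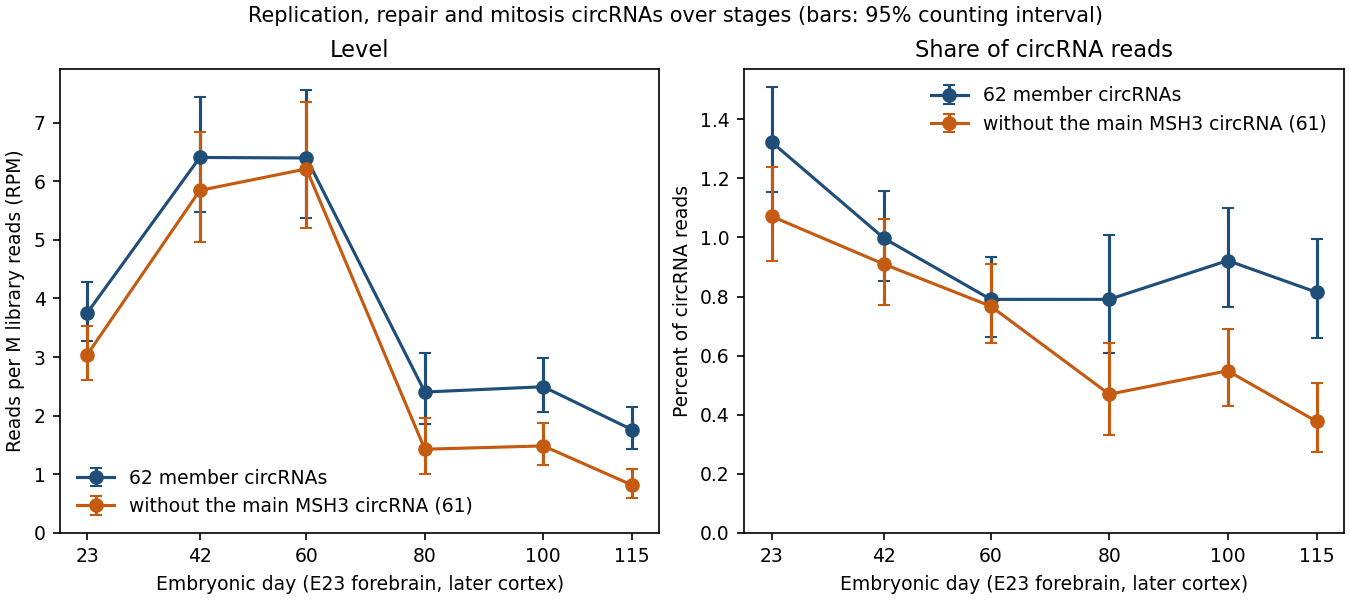
Summed level of member circRNAs in RPM (left) and their share of all circRNA reads in percent (right) against embryonic day, with 95% exact counting intervals and 1 library a point. Blue is all 62 members and orange leaves out the main MSH3 circRNA; the share without it goes from 1.07% at E23 to 0.377% at E115.

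The main BUB1B and TOP2A circRNAs had most of their reads in the first libraries. BUB1B encodes the checkpoint protein BubR1, and its main circRNA (chr1:146236293-146245609) had 25 reads at E23, 8 at E42, 2 at E60 and 0 at E80, E100 and E115. Its level was 0.425 RPM at E23, and 0 reads at E115 allow up to 0.0556 RPM (3 reads), so E23 was 7.65-fold higher against this floor, and at least 5.77-fold higher by the lower limit of the exact 95% interval of the ratio. The second BUB1B circRNA had 3 reads at E23, 1 at E42 and none later. TOP2A, the type II topoisomerase of dividing cells, had 21, 6, 3, 1, 1 and 0 reads in its main circRNA (chr12:22321255-22323341), and E23 was 6.42-fold higher than E115 against the same floor, and at least 4.78-fold higher by the exact lower limit. Its second circRNA (start 22320498) had 2 reads at E23 and 7 at E42, so the 3 TOP2A circRNAs together were at 0.391 RPM at E23 (0.248 to 0.587) and 0.562 at E42 (0.315 to 0.927). These intervals overlap. BARD1, the partner of BRCA1, had 9 and 8 reads at E23 and E42 and 0 in the 4 later libraries. SMC4, the condensin core, had 6, 3, 2 and then 0 reads. All 5 checkpoint and kinetochore circRNAs together had 31, 16, 6, 0, 4 and 0 reads, and the 4 reads at E100 came from CENPC. Within this group CENPK had 0, 7 and 1 reads in the first 3 libraries and BUB1 had 1, 0 and 3, unlike BUB1B.

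Other members had different courses. RAD54L2 (chr13:37111091-37113036) had 25 reads at E60 and 4 to 6 in each of the other 5 libraries, 1.17 RPM against 0.0850 to 0.187. No member listed over the 5 regions has RAD54L2 as its host, though the same E60 and E115 cortex libraries are included there. Why it is absent was not tested. FANCM, a translocase of the Fanconi pathway (chr1:195242228-195244121), had 7, 9, 8, 2, 2 and 0 reads. CCNI (chr8:76896146-76911005) had 7, 12, 6, 1, 0 and 1 reads. TOP2B (chr13:14168314-14175018) had 12, 4, 4, 0, 1 and 2. These latter were thus mainly seen up to E60. ORC4 of the origin complex (chr15:3788416-3801791) had 7, 5, 5, 2, 8 and 1 reads, XRCC4 of end joining (chr2:93467543-93549427) 8, 5, 1, 2, 5 and 5, and CCNYL1 (chr15:122453532-122461484) 2, 2, 5, 2, 8 and 1, all without a steady course. The main MCMBP (chr14:141202621-141205125) and STAG2 (chrX:116341278-116352321) circRNAs, with 5, 12, 14, 4, 0 and 1 and with 6, 6, 6, 5, 0 and 0 reads, did not add up to their stated totals of 39 and 24. The E100 value was 0 in both, and E100 reads may be missing there.

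By highest level, the 10 members with at least 20 reads split into 3 at E23 (BUB1B, TOP2A, TOP2B), 2 at E42 (CCNI, XRCC4), 4 at E60 (RAD54L2, ORC4, FANCM, CCNYL1) and MSH3 at E100. The 3 that were highest at E23 reached 20 reads only through that library. Among all 803 such circRNAs 6.72% were highest at E23, 29.8% at E42 and 52.2% at E60. Between E23 and E115 alone, 7 members had at least 10 reads in the pair. Of these 4 (BUB1B, TOP2A, TOP2B, SMC3) were at least 2-fold lower at E115, where 40.6% of all circRNAs were, and 0 were 2-fold higher, where 19.6% of all were. The 4 reached 10 reads only through E23. Between E60 and E115 of the cortex only RAD54L2 and MSH3 had enough reads. RAD54L2 was 10.5-fold higher at E60 (exact interval 4.21 to 31.3), on the side of the 74.1% of circRNAs that were 2-fold lower at E115. The main MSH3 circRNA was on the side of the 6.51% that were 2-fold higher at E115.

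A linear trend over the 6 libraries was fitted to all 803 circRNAs (edgeR quasi-likelihood test, scaled by library totals). No member of the 10 tested passed an adjusted p of 0.05, and 3 of all 803 did (0.374%; 0.125% higher and 0.249% lower). The members nearest to it were BUB1B, whose log2 change over the span was -8.22 (SE 2.09, edgeR adjusted p = 0.163), and TOP2A, at -5.54 (SE 1.78, edgeR adjusted p = 0.257). Together with CCNI (-4.99, edgeR adjusted p = 0.451) they were the members with an unadjusted p under 0.05, where 88 of all 803 were. The main MSH3 circRNA was at 0.83 (SE 1.03, edgeR adjusted p = 0.696). The median was -2.30 over the 10 members and -1.47 over all 803, with 8 of the 10 below 0, near the 81.6% of all 803. These calls depend on scaling. TMM factors and DESeq2 scale by circRNA reads and not by library totals, so their changes are relative to other circRNAs. With TMM factors the median of all circRNAs was -0.19, and the calls went from 1 higher and 2 lower to 27 and 14. BUB1B (edgeR adjusted p = 0.00365) and TOP2A (0.0279) were among the 14 that fell (1.74% of 803). Both had enough reads for the fit only through E23, which held 25 of the 35 BUB1B reads and 21 of the 32 TOP2A reads. The read filter thus favoured a fall from E23 in both. Their p-values in any of these fits cannot separate a fall from this selection. DESeq2 called BUB1B (DESeq2 adjusted p = 0.00503) and not TOP2A (0.0636). RAD54L2 and XRCC4 were below 0 with library totals and above 0 with TMM. Single libraries also decided the calls. Without the E23 forebrain 178 circRNAs passed, 172 of them lower with day, FANCM and CCNI among them. BUB1B and TOP2A had too few reads left to be tested without E23. With TMM factors and without E23, a setting that was not planned, the split of the 651 turned to 35 higher and 12 lower. The 1 member called of the 5 tested was MSH3, higher by 3.91 on the log2 scale (edgeR adjusted p = 0.0381). With library totals and without the E60 cortex 26 of 619 passed, with BUB1B (edgeR adjusted p = 0.0222) and TOP2A (0.0428). Without E42, E100 or E115 0 passed.

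The level of the host genes was read as FPKM (fragments per kilobase and M mapped fragments), from the same libraries as the loops. A gene is a host here only if a circRNA of it was listed. Host changes are therefore not independent support for those of the loops. Over the cortex series 24 of the 35 member hosts fell and 0 rose (limma on log2(FPKM + 1), adjusted p under 0.05), where 14.6% of all 2254 hosts fell and 9.85% rose. The median log2 change from E23 to E115 was -1.72 over member hosts and -0.40 over all. Below 0 were 34 of the 35, and 63.1% of all hosts. With quantile normalization the median of all hosts was -0.17, that of the members -1.49, and 23 members fell. Without E115 11 members fell and without E100 13, where 88 and 125 of all hosts fell in place of 329.

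TOP2A changed most among member hosts, at 206, 127, 16.1, 9.89, 6.47 and 2.15 FPKM from E23 to E115 (log2 change -6.05, SE 0.64, limma adjusted p = 0.00102). Each stage was below the one before, and the widest step lay between E42 and E60. The checkpoint kinase BUB1 was at 31.03, 13.1, 2.74, 1.21, 0.631 and 0.290 FPKM (-4.69, SE 0.59, limma adjusted p = 0.00189). BUB1B was at 25.3, 16.8, 3.01, 1.89, 1.82 and 0.458 FPKM (-4.11, SE 0.59, limma adjusted p = 0.00293). The kinetochore hosts CENPK and CENPC fell less, by 1.64 and 1.16 on the log2 scale. All 4 hosts of checkpoint and kinetochore thus fell.

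Among replication genes, MCM2 of the helicase was at 43.6, 26.2, 3.75, 2.80, 2.16 and 0.967 FPKM (-4.52, SE 0.65, limma adjusted p = 0.00293). Of 6 hosts of replication origins 4 fell: MCM2, MCM8 (-2.46), MCMBP and ORC5. ORC4 (-1.14, limma adjusted p = 0.0507) and ORC3 (-0.93) did not pass. CCNB2, a cyclin of mitotic entry, was at 24.8, 14.6, 2.84, 1.72, 1.45 and 0.416 FPKM and fell by 4.14 (SE 0.57, limma adjusted p = 0.00253), while CCNI was at 143 to 399 FPKM with a change of -0.02 (SE 0.62) and CCNYL1 did not pass. All 5 hosts of cohesin, condensin and the SMC5/6 complex fell, with SMC4 from 56.8 to 3.50 FPKM (-3.65, SE 0.62) and SMC3, of the cohesin ring, from 72.4 to 12.6 (-2.50, SE 0.48).

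Among repair genes, all 4 hosts of the BRCA1 partner and Fanconi group fell, with BARD1 at -3.11 (SE 0.51), FANCL, the ubiquitin ligase of the pathway, at -2.91 (SE 0.60) and FANCI at -2.73 (SE 0.51). FANCL had its highest FPKM at E42 (28.3) and was still at 22.3 at E60, where BARD1 was at 2.33 after 11.5 at E23. The mismatch gene MSH3 was at 11.1 to 15.2 FPKM in all 6 libraries (0.03, SE 0.37, limma adjusted p = 0.956, interval -0.68 to 0.75). Its 6 values thus stayed within a narrow range. Break and excision repair had 2 of 6 fall (XRCC5 and RAD54L2); ATR fell (-1.96) and ATM was at 10.9 to 14.8 FPKM (-0.32, limma adjusted p = 0.512). Of the topoisomerases TOP2A and TOP2B (-1.48, limma adjusted p = 0.0495) fell and TOP1 did not pass (-0.33). The hosts given here with the largest falls, from TOP2A to MCM8, were all highest at E23 except FANCL, and all lowest at E115.

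**Figure D2:**
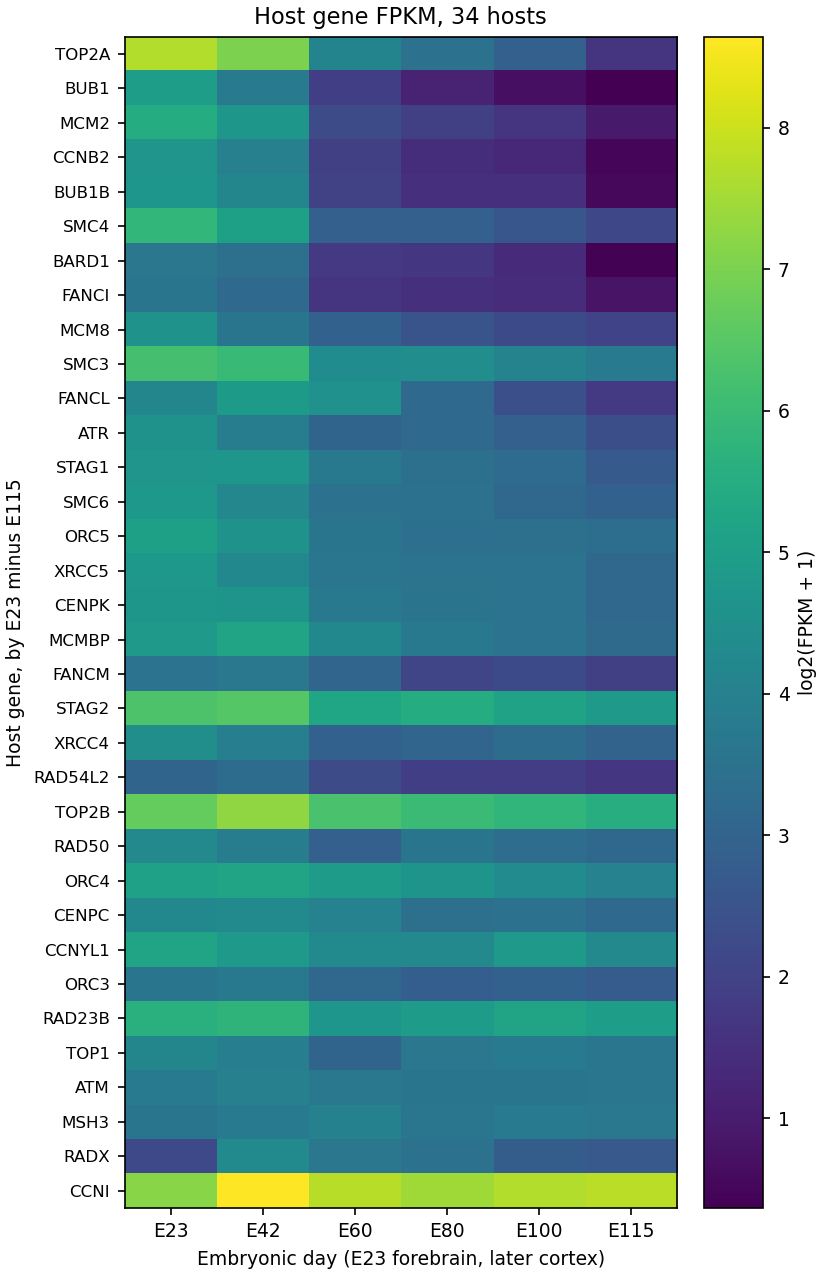
Host gene level as log2(FPKM + 1), by color, for 34 member hosts (rows, ordered by E23 minus E115) in the E23 forebrain and 5 cortex stages (columns), 1 library each. TOP2A goes from 206 to 2.15 FPKM, while MSH3 stays between 11.1 and 15.2 and CCNI between 143 and 399.

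**Figure D3:**
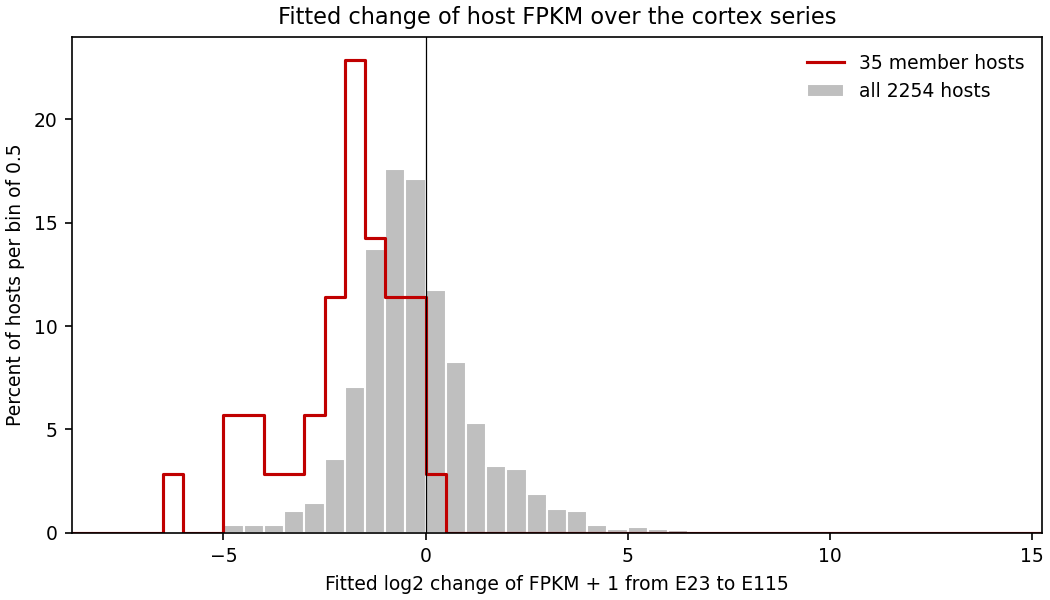
Share of hosts per bin of fitted log2 change of FPKM + 1 from E23 to E115, for all 2254 hosts (grey bars) and the 35 member hosts (red line). Member hosts have a median of -1.72 against -0.40 for all, and MSH3 (0.03) is the 1 member host above 0.

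The highest FPKM was at E23 in 20 member hosts (27.6% of all hosts), at E42 in 14 (38.2%) and at E60 in MSH3 alone. Lowest FPKM was at E115 in 26 of the 35 (31.4% of all). From E60 to E115 alone, 9 of the 35 were at least 2-fold lower (11.1% of all) and 0 were 2-fold higher (12.4% of all).

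Other genes of the same processes were read from a list of 97, of which 25 were hosts in the cortex table. Here 10 fell and 0 rose, where 14.6% of all 2254 hosts fell and 9.85% rose. The median was -1.13, against -0.40 over all hosts. Among the 10 were the spindle motor KIF11 (-4.97, SE 0.48, limma adjusted p = 0.000679), KIF23 (-4.32) and the chromatin remodeller HELLS (-4.13). So were KIF18A (-3.87), DTL of the replication ligase (-3.85) and the checkpoint kinase TTK (-3.59). Genes that did not pass included the cohesin loader NIPBL (-0.89), PRKDC of end joining (0.09) and the translesion polymerase REV3L (-0.10).

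Markers of other cells moved over the same libraries. Of 13 neuronal markers 6 were hosts (MAP2, SYN2, SYT1, GRIA2, DCX, CAMK2A), and their summed FPKM from E23 to E115 was 52.9, 550.5, 384, 504.5, 799.8 and 949. DCX, a marker of young neurons among them, was instead at 129.9 FPKM at E42 and 18.2 at E115. Of 15 markers of progenitors and radial glia 3 were hosts (SOX2, PROM1, PTPRZ1), with sums of 43.0, 140.1, 66.3, 105.7, 178 and 114. At E23 and E115 PTPRZ1 was at 4.96 and 72.4 FPKM, SOX2 at 30.7 and 36.9, and PROM1 at 7.34 and 4.96. FLT1, the 1 vascular marker of 12, was at 3.26 FPKM at E23 and 14.3 at E115. None of these was listed at 0. Their part in the members' results was not tested. Of 4 markers of astrocytes and 8 of oligodendrocytes 0 were hosts, so these cells could not be followed.

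The loops and their host genes could be set side by side as RPM per 100 FPKM, a ratio of 2 different units that is not a share of transcripts. MSH3 gave the highest ratio of the 11 member hosts with at least 20 circRNA reads, 7.34 over the series, where the median of 713 hosts was 1.35. Per library its 6 circRNAs that add up were at 0.782, 0.824, 0.607, 1.01, 1.17 and 1.07 RPM, at ratios of 7.03, 6.70, 4.004, 9.09, 9.06 and 9.03. TOP2A had 0.190 at E23, 0.444 at E42 and 0.871 at E60, the last from 3 reads, and BUB1B had 1.88, 2.003 and 3.10. The RAD54L2 ratio was 1.19 at E23, 2.14 at E42, 30.3 at E60 and 4.64 to 5.496 later. From E42 to E60 its circRNA was at 0.187 and 1.17 RPM and its host at 8.77 and 3.85 FPKM. CCNI had the lowest ratio, 0.0668.

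**Figure D4:**
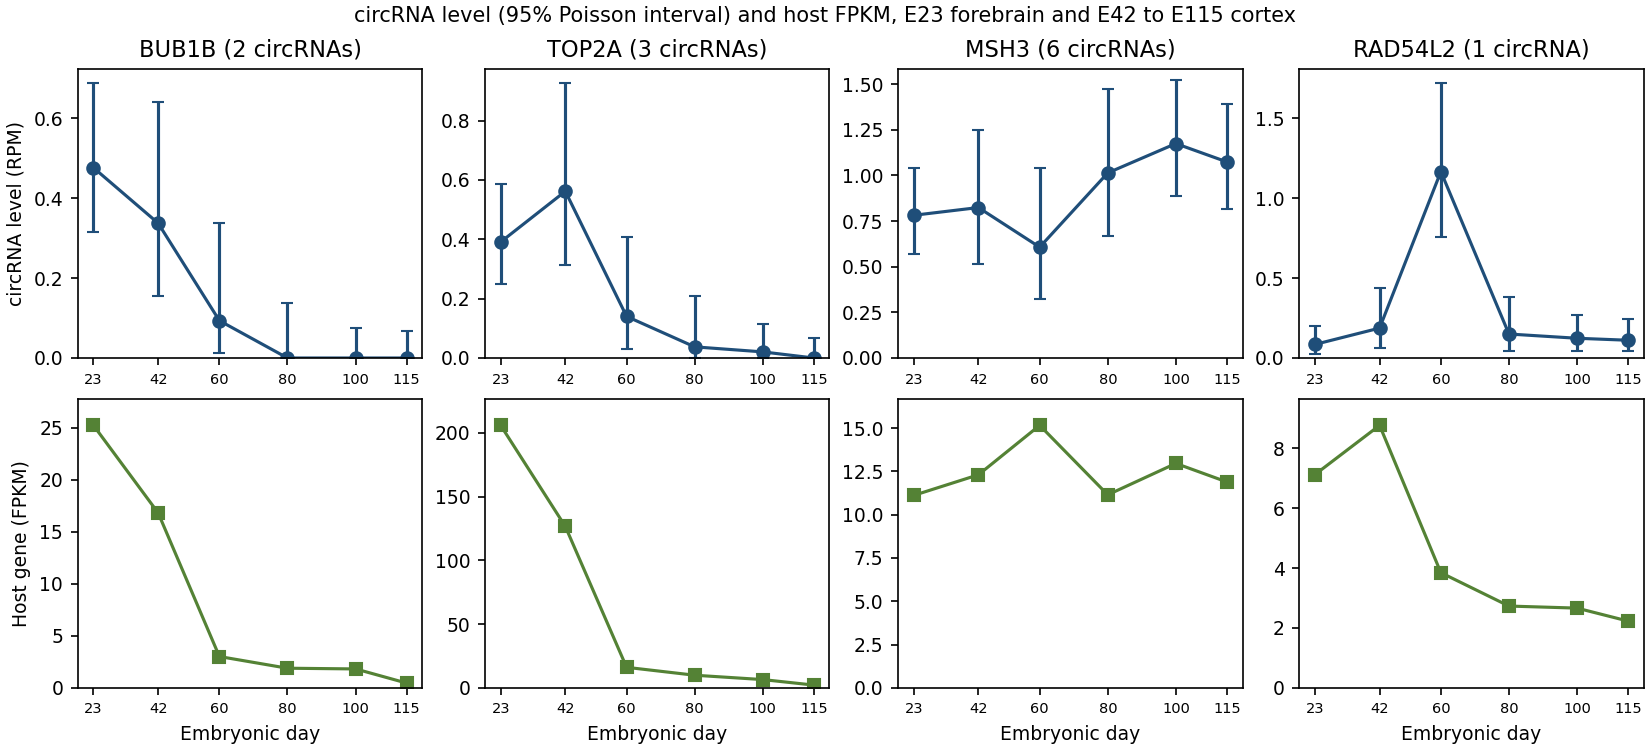
Upper row: summed circRNA level in RPM of BUB1B, TOP2A, MSH3 and RAD54L2 against embryonic day, with 95% exact Poisson intervals; lower row: FPKM of the host gene, 1 library a point. BUB1B and TOP2A loops and hosts are high at E23 and E42, MSH3 loops stay at 0.607 to 1.17 RPM, and RAD54L2 loops reach 1.17 RPM at E60 while the host is at 8.77 FPKM at E42 and 3.85 at E60.

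The 5 regions at E60 and E115 asked whether the change over time was shared across the brain. The 49 members that add up had 366 reads over the regions, and MSH3 made up 42.2% of the reads of all members there. The summed level was 4.90 RPM in the E60 cortex and 1.57 at E115. For the same 2 libraries the cortex series gave 6.40 and 1.76 RPM, from its own set of 62 members. Basal ganglia had 1.34 RPM at E60 and 0.517 at E115, while the hippocampus had 0.712 and 1.83, the cerebellum 1.26 and 3.12, and the brain stem 0.303 and 1.35. As a share of circRNA reads the values ran closer together. The hippocampus had 0.966% and 1.22%, the cortex 0.716% and 1.06%, the brain stem 0.772% and 1.02%, the cerebellum 0.833% and 0.809%, and the basal ganglia 0.734% and 0.412%. The intervals of both days overlapped in each of the 5 regions, and in cortex they were 0.586% to 0.866% and 0.846% to 1.31%.

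The main MSH3 circRNA was the most read member here too, though its cortex reads are the same as those of the cortex series. It had 4 reads at E60 and 51 at E115 in cortex, 2 and 34 in brain stem, 7 and 8 in hippocampus, 5 and 5 in cerebellum, and 3 and 3 in basal ganglia. Per M library reads E115 was 5.06-fold above E60 in cortex (exact interval 1.86 to 19.3), where 2.57% of 467 circRNAs were 2-fold higher and 82.4% were 2-fold lower. It was 5.97-fold above in brain stem (1.53 to 51.3), where 77.8% of 90 circRNAs were 2-fold higher. In cerebellum the ratio was 0.655 (0.151 to 2.85), where 64.9% of 134 were 2-fold higher and 1.49% 2-fold lower. In hippocampus it was 2.67 (0.845 to 8.63), where 46.9% of 49 were 2-fold higher. All 8 MSH3 circRNAs together moved less in cortex, at 0.794 RPM (0.462 to 1.27) at E60 and 1.09 (0.832 to 1.41) at E115. These intervals overlap. In brain stem the 8 were at 0.151 RPM (0.0183 to 0.547) and 0.982 (0.692 to 1.35). Over the 5 regions the main MSH3 circRNA had a log2 change of 1.19 (SE 1.14, edgeR adjusted p = 0.999). Neither MCMBP (-0.71) nor CCNI (-0.33), the other members tested, passed. Of all 387 circRNAs tested 0 passed (0.0%) with edgeR and 4 had an unadjusted p under 0.05, while 2 passed with TMM factors and 1 with DESeq2.

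TOP2A and BUB1B loops had few reads over the regions, and outside the cortex most of them were in the E115 cerebellum. That library also had 6056 circRNA reads, against 518 to 5003 in the others outside the cortex. TOP2A had 5 reads in the E115 cerebellum, 3 in the E60 cortex and 0 in the other 8 libraries, and BUB1B had 3, 2 and, in the E60 basal ganglia, 1. The E60 cerebellum had 0 reads of both, which allows up to 0.292 RPM, close to the 0.318 RPM of TOP2A at E115, so a difference between the days was not detectable at this depth. The same floor was 0.227 to 0.310 RPM in the basal ganglia, E60 brain stem and E115 hippocampus, so a difference from these was not detectable either. It was lower, at 0.0797 and 0.112 RPM, in the E115 brain stem and E60 hippocampus. CCNI was read most in the E115 cerebellum (7) and the E60 cortex (6), with 0 to 4 in the other libraries. MCMBP had 7 reads in the E60 cortex, where the cortex table lists 14 for the same circRNA, and 4 in the cerebellum on each day. Of the other much-read members, RAD23B of excision repair, TOP1, CCNYL1, ORC4 and ATM had 9 to 13 reads each over the 10 libraries, at most 6 in any of them. A pair of further MSH3 circRNAs had 9 each.

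Among the host genes, TOP2A and BUB1B were highest in the cerebellum on both days. TOP2A was at 44.8 FPKM in the E60 cerebellum and 18.8 at E115, at 18.1 and 4.57 in cortex, 13.2 and 1.64 in hippocampus, 8.51 and 2.80 in basal ganglia and 2.53 and 2.71 in brain stem. BUB1B was at 6.67 and 1.91 in cerebellum, 2.85 and 0.692 in cortex, 2.65 and 0.326 in hippocampus, 1.36 and 0.413 in basal ganglia and 0.929 and 0.355 in brain stem. Of the 5 regions only the brain stem did not have a lower TOP2A value at E115. BUB1, SMC4, BARD1 and CENPE, the kinetochore motor, were likewise highest in the E60 cerebellum, at 7.40, 24.5, 4.12 and 8.49 FPKM. These 4 were named after their values were seen.

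**Figure D5:**
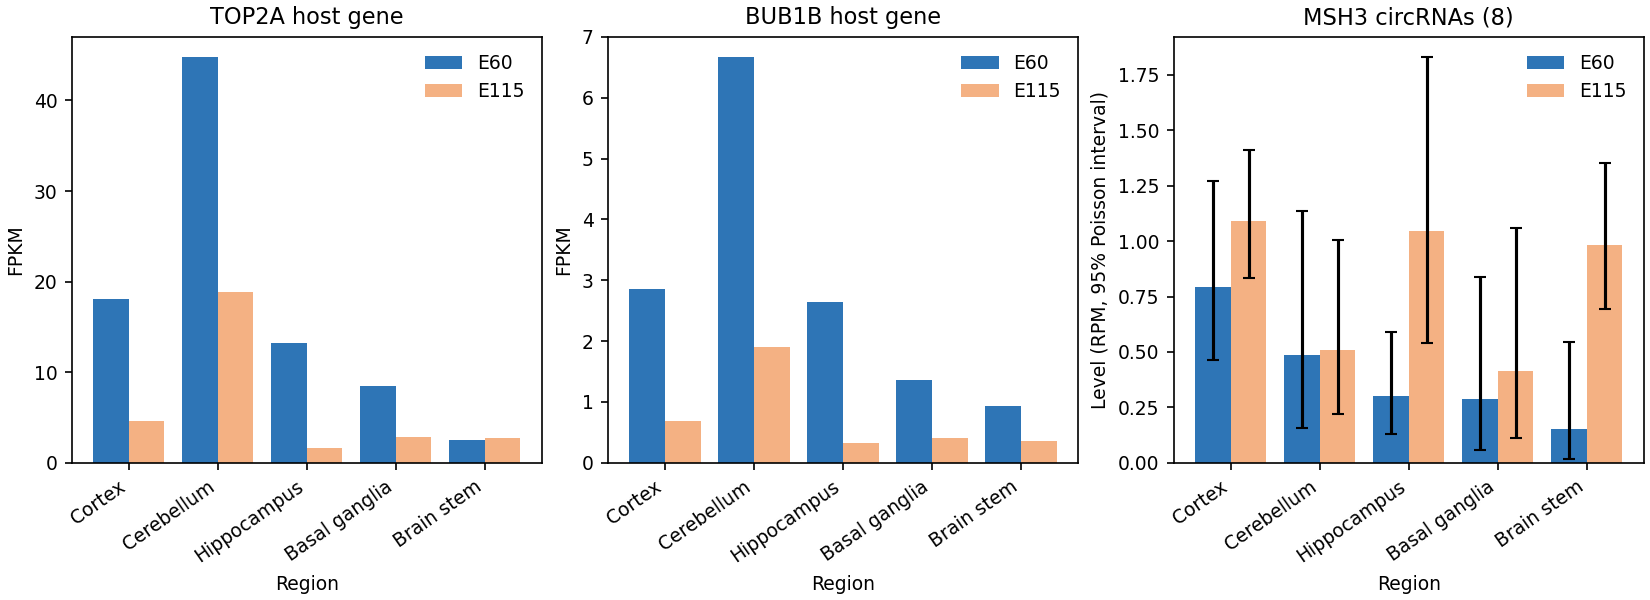
Host gene FPKM of TOP2A (left) and BUB1B (middle) and the summed level of 8 MSH3 circRNAs in RPM (right, 95% exact Poisson intervals) in 5 regions at E60 (blue) and E115 (orange), 1 library a bar. TOP2A is highest in the cerebellum, at 44.8 and 18.8 FPKM, and MSH3 loops go from 0.151 to 0.982 RPM in the brain stem.

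Across the 5 regions TOP2A and BUB1B were the 2 of 26 member hosts that fell from E60 to E115, where 1.42% of all 1757 hosts fell and 9.62% rose. TOP2A changed by -1.33 (SE 0.35) and BUB1B by -1.06 (SE 0.28), both with a limma adjusted p of 0.0200, and no member rose. The median was 0.07 over members and 0.27 over all hosts, and 11 of 26 were below 0, where 31.2% of all hosts were. Quantile normalization set the median of all hosts at -0.03 and the calls from 169 higher and 25 lower to 126 and 97. Under it 21 of 26 members were below 0, where 52.4% of all hosts were, and 4 members fell. Both calls were lost without either basal ganglia library, without the E60 cerebellum (TOP2A limma adjusted p = 0.0511, BUB1B 0.0574) and without the region block (0.218 and 0.101). TOP2A alone was lost without the E115 cortex (0.0885) and BUB1B alone without the E115 cerebellum (0.0558). With region as a block, leaving out either library of a region takes that region out of the fitted day change. Such losses thus show dependence on a region and not on 1 of its libraries. Of 14 other genes of replication, repair and mitosis that were hosts here, DTL fell (-0.94, limma adjusted p = 0.0292).

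Within single regions, hosts at least 2-fold lower at E115 were 7 of 26 in hippocampus (13.3% of all hosts), 5 of 26 in cerebellum (4.63%), 2 of 26 in cortex (12.5%), 1 of 25 in basal ganglia (6.59%) and 0 of 23 in brain stem (1.68%). The 5 in cerebellum were TOP2A, BUB1B, BUB1, BARD1 and SMC4, the 2 in cortex TOP2A and BUB1B, and that in basal ganglia TOP2A, all named after their values were seen. Hosts 2-fold higher at E115 were 0 in hippocampus (10.1% of all), cerebellum (14.6%) and cortex (14.7%), and ATM alone in basal ganglia (15.7%). In brain stem 14 of 23 were 2-fold higher at E115, and so were 56.2% of all hosts. The E60 brain stem was the lowest library for 21 of 26 member hosts and for 69.7% of all hosts, and it had the lowest median FPKM of all hosts, 4.73 against 10.5 to 16.3 in the other libraries. The MSH3 host was at 10.5 to 14.0 FPKM in all libraries but the E60 basal ganglia (5.34) and E60 brain stem (2.58). The E60 and E115 cortex libraries are the same in the 2 tables, but their host FPKM differs by gene, at times in direction. SYN2 went from 4.32 at E60 to 74.4 at E115 in the cortex table and from 41.8 to 29.1 in the other. The reason was not tested, so host FPKM is compared only within a table, and cortex counts of hosts may depend on the table.

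Markers of the labelled tissue were read in the same libraries. PAX6 and RELN, the hosts among 6 markers of cerebellar granule cells, were at 67.2 and 84.6 FPKM in the E60 cerebellum and 54.5 and 118 at E115, against 1.08 to 8.74 and 12.2 to 37.6 in the other libraries. Of 15 progenitor markers PAX6, SLC1A3 and PTPRZ1 were hosts, with a summed FPKM of 244 and 511 in cerebellum and 50.3 to 319 elsewhere. SLC1A3 made up most of the cerebellar sum, at 130 FPKM at E60 and 400 at E115. PTPRZ1 was at 46.9 and 57.0 there, while PAX6 was lower at E115. The summed FPKM of 5 of 13 neuronal markers was 186 and 323 in cerebellum and 95.3 to 493 elsewhere. CAMK2A was listed at 0 in the E60 cerebellum. In cortex the sum went from 346 at E60 to 182 at E115, while in the other regions it was higher at E115. The 6 neuronal markers of the cortex series had sums of 384 and 949 in the same 2 libraries. CAMK2A in the E115 cortex was at 6.42 FPKM here and at 119 in that series. The part of these markers in the host differences was not tested.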

How the data were processed

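The deposited tables give a whole count of junction reads for every circRNA and library, per the file headers. RPM values were computed by the authors (reads per M library reads), and nearly all single reads are listed at 0 there. Host FPKM was deposited beside them, and the submitters' processing notes name Cufflinks, Cuffdiff, Trim Galore, TopHat2 and Sscrofa10.2. Other deposited values are the stated read totals and genomic lengths. The circRNA caller is not given in the sources used here. Positions count from 1. No genome of that build was used, so exons and introns at the junctions were not examined and no sequences are shown.

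Library totals (9.67 to 58.8 M) were recovered as reads divided by RPM. Value columns without a sample numbered 0. Only lines whose reads add up to the stated total entered sums and circRNA tests, a filter chosen after values had been seen. Host names given as Ensembl IDs were resolved with a gene ID table, for 9 member lines in the cortex table (BUB1B among them) and 8 in the regions table. Lines naming several hosts were left out, among them 1 and 4 that name a gene of the rule.

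Junction counts went into edgeR 4.0.16 (quasi-likelihood test, at least 20 reads, library totals as offsets) and FPKM with limma 3.58.1 (log2(FPKM + 1), mean FPKM at least 0.5), in R 4.3.3, over all circRNAs or hosts. P-values were adjusted by Benjamini-Hochberg and called under 0.05. The cortex trend is linear in day and given over the 92 days from E23 to E115; the regions fit sets E115 against E60 with region as a block. A 2-fold difference of libraries used circRNAs with at least 10 reads (0.5 reads added) or hosts with FPKM of at least 1 (1 added). Scripts were tested on simulated data. DESeq2 1.42.0, TMM, other filters and left-out libraries were alternatives. Intervals and floors (3 reads) cover counting error only.

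The members and gene lists were chosen with earlier results of these data known. Named in full were BUB1B and TOP2A, the 12 members with most reads in each table, members passing a test, and the 12 hosts with the largest change past the threshold. A host gene that the rule names is not reported here by name, though counts over hosts include it.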

Additional observations from a re-analysis of the deposited data

Results flagged for a closer look

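The summed member circRNA level moved in opposite directions from E60 to E115 in different regions, a difference that was not tested since each region and day is 1 library. The ratio of E115 to E60 was 0.321 in cortex (exact interval 0.238 to 0.431) and 0.386 in basal ganglia (0.109 to 1.13), and 4.47 in brain stem (1.64 to 17.05), 2.47 in cerebellum (1.32 to 4.96) and 2.58 in hippocampus (1.32 to 5.07). The basal ganglia interval includes 1, and reads of that E115 library may be missing from lines that do not add up. All circRNAs moved in the same directions in cortex, cerebellum, brain stem and hippocampus, with median log2 differences of -2.56, 1.58, 2.23 and 0.79 among those with at least 10 reads.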

How the results depend on the processing

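Depth limited the circRNA tests: 10 and 3 members had enough reads, and in small libraries a floor of 3 reads reached 0.310 RPM. With TMM factors, DESeq2 and TMM without E23 the cortex trend gave 41, 49 and 47 circRNAs and 2, 1 and 1 members past the threshold, lower with day in the first pair and higher (MSH3) in the third; RAD54L2 was at 0.35 and 0.48 and XRCC4 at 0.10 and 0.21 with the first pair, and ORC4 at 0.091 with the third, all reversed. Over regions TMM gave 2 circRNAs and DESeq2 gave 1, and CCNI was at 0.24 without the region block. Host calls over regions were 118 (1 member) without a filter and 102 (0 members) without the block, and quantile normalization gave 4 members. Without 1 library at a time the cortex trend gave 0 to 178 circRNAs (0 to 2 members) and 208 to 665 hosts (11 to 27 members), and the regions 0 to 1 circRNAs and 55 to 292 hosts (0 to 3 members); RAD54L2 then ranged from -3.51 to 0.0053, and over regions CCNI from -1.44 to 0.98 and MCMBP from -1.34 to 0.14. The cause was not tested. The members lower with day under TMM factors or DESeq2, BUB1B and TOP2A, had enough reads for the fit only through E23.

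Leaving out the main MSH3 circRNA gave levels of 3.04, 1.43, 1.48 and 0.815 RPM at E23, E80, E100 and E115 and shares of 1.07%, 0.469%, 0.548% and 0.377%. Over regions it gave 0.451 RPM and 0.340% in the E115 brain stem, 0.630 RPM and 0.423% in the E115 cortex and 0.754% in the E115 hippocampus. All lines gave 7.46, 7.85 and 3.15 RPM at E42, E60 and E80, and 2 members in place of 1 at least 2-fold lower in the E115 than in the E60 cortex. Without MCMBP, CCNYL1, CCNI and RAD54L2, chosen after seeing the data, levels were 5.25, 4.30 and 2.04 RPM at E42, E60 and E100 with shares of 0.816%, 0.531% and 0.754%, and over regions 2.04 RPM and 0.528% in the E115 cerebellum and 3.69 RPM and 0.538% in the E60 cortex. Region pairs the days in the regions fits, and TOP2A and BUB1B passed with this block and not without it. By replicate number no paired analysis was possible because each group has a single library.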
